A study of Homo sapiens with 6 samples.

Results

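The CCT chaperonin, also called TRiC, folds newly made proteins in the cytosol, and its 8 subunit genes were examined in RKO cells, a human colon carcinoma line, in libraries labelled GSK3B wild type or knockout. The members were the rows of the count tables named TCP1, CCT2, CCT3, CCT4, CCT5, CCT6A, CCT7 and CCT8, that is 8 of 28278 gene symbols. All 8 were present and all 8 passed the filter on low counts. One group was RKO with wild-type GSK3B (3 libraries) and the other was RKO described as GSK3B knockout (3 libraries). No treatment is named in the labels, which leave out the method of the knockout and any mention of clones, pools or separate cultures. A p-value here thus measures the spread between these libraries alone, and that spread may be technical.

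In background, the complex is a pair of stacked rings, each built from a single copy of all 8 paralogous subunits, and it encloses a client protein while ATP is hydrolysed. Its main clients are actin and tubulin, and it also folds WD40-repeat proteins such as CDC20 and G-protein beta subunits. The heterohexamer prefoldin hands unfolded actin and tubulin to it, and phosducin-like proteins act as cochaperones. The subunits differ in how they use ATP: CCT5, CCT2, CCT4 and TCP1 lie on the side of the ring that binds it tightly, and CCT3, CCT6A, CCT8 and CCT7 on the other. Because each ring needs every subunit, the balance between their transcripts is of interest beside their level.

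Levels are given as CPM, counts scaled to a common library size by TMM, a correction for library composition. Total counts ran from 32379369 to 33558362 per library. GSK3B itself was at 91.4 to 99.0 CPM in wild type and 46.0 to 47.5 CPM in the knockout libraries, so that 48.8% of the transcript level remained in the libraries labelled knockout. Of 14409 tested genes 1951 (13.5%) passed edgeR's quasi-likelihood test at a Benjamini-Hochberg adjusted p under 0.05, 917 higher (6.36%) and 1034 lower (7.18%). With scaling by library size alone the split was 649 higher and 1229 lower. Of 8 colon epithelial markers KRT8, KRT18, CDX2 and VIL1 were between 15.4 and 76.1 CPM in every library. EPCAM was at 2.40 to 4.28 CPM in wild type and 1.04 to 1.11 CPM in the knockout. KRT19 and KRT20 stayed at or below 0.152 CPM and CDH1 was listed at 0, which in these tables is also the value of FBL, the nucleolar methyltransferase gene, so that a 0 is not read as absence.

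All 8 CCT transcripts had a higher mean in the knockout, by small amounts, and 4 of them passed the test. CCT2, CCT6A, CCT5 and TCP1 rose by 13.1%, 12.5%, 11.3% and 7.75%. CCT4, CCT8, CCT7 and CCT3 stood 4.79%, 4.53%, 3.77% and 2.83% above wild type and did not pass. Of the tested genes 6.36% were called higher, and of the 831 genes whose mean reached 200 CPM, a range that holds all 8 subunits, 23.7%. The number of subunits called lower was 0 in edgeR, DESeq2 and limma-voom, and 0 also at an unadjusted p under 0.05. The median log2 fold change of the 8 was 0.09, against 0.00 over all tested genes. Log2 fold changes were above 0 in 50.1% of tested genes and in 70.2% of those whose mean reached 200 CPM.

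**Figure D1:**
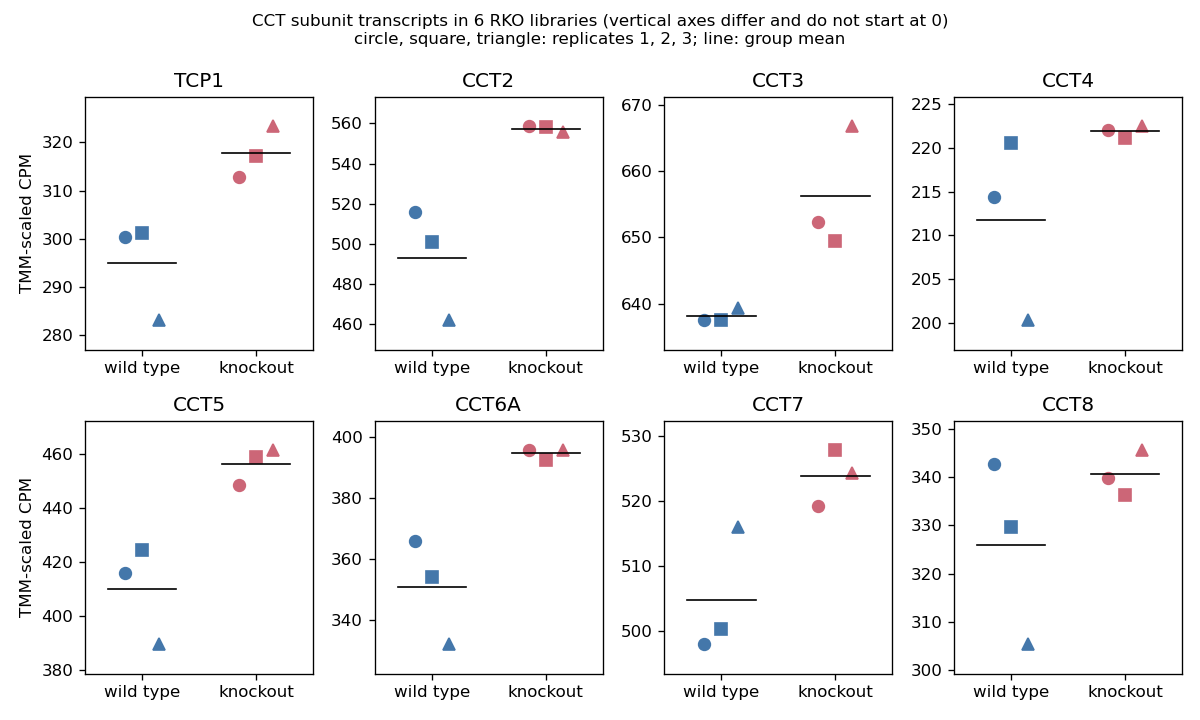
TMM-scaled CPM of each subunit transcript (vertical axes, which differ and do not start at 0) in the 3 wild-type and 3 knockout libraries, 1 point per library with the group mean as a line. The groups were apart in 7 of 8 subunits, and CCT8 overlapped.

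On the side of the ring that binds ATP tightly, CCT2 encodes the beta subunit, which has also been described as a receptor for the autophagy of protein aggregates. In wild type, replicates 1 to 3 had 516, 501 and 462 CPM, and the knockout replicates 1 to 3 had 559, 558 and 555.5 CPM. The 3 knockout libraries lay close together and above every wild-type library, while wild-type replicate 3 was well below the rest of its group. The log2 fold change was 0.18 ± 0.04 (SE, n = 3 per group; edgeR, adjusted p = 0.00206), with a 95% interval of 7.29% to 19.2%.

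CCT5 encodes the epsilon subunit, in which an inherited mutation causes a sensory neuropathy. Its values were 416, 425 and 390 CPM in wild type and 449, 459 and 462 CPM in the knockout. The groups did not overlap, and wild-type replicate 3 was again the lowest library. The log2 fold change was 0.15 ± 0.04 (SE; edgeR, adjusted p = 0.00544), with a 95% interval of 5.73% to 17.2%.

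TCP1 encodes the alpha subunit, the member found first, as a protein of the mouse t complex. It had 300.4, 301.3 and 283 CPM in wild type and 313, 317 and 323 CPM in the knockout. The groups were apart, but the call was at the edge of the threshold, with a log2 fold change of 0.11 ± 0.04 (SE; edgeR, adjusted p = 0.0494). It was made in 9 of 17 alternative analyses. Without wild-type replicate 2 the adjusted p was 0.0904, and without knockout replicates 1, 2 and 3 it was 0.110, 0.166 and 0.199.

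CCT4, the delta subunit, is a contact site of prefoldin. Its levels were 214.4, 220.5 and 200.3 CPM in wild type and 222.0, 221.1 and 222.5 CPM in the knockout. All 3 knockout libraries stood above wild-type replicate 2 by a narrow margin, and the difference did not pass (log2 fold change 0.07 ± 0.04, edgeR, adjusted p = 0.283). Its 95% interval ran from -1.025% to 10.95%. Without wild-type replicate 3 the log2 fold change was 0.03.

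On the other side of the ring, CCT6A, the zeta subunit, has a testis paralog, CCT6B. It was at 366, 354 and 332 CPM in wild type and at 396, 392 and 396 CPM in the knockout. As with CCT2, the knockout values were tightly grouped, all above wild type. The log2 fold change was 0.17 ± 0.04 (SE; edgeR, adjusted p = 0.00304), with a 95% interval of 6.72% to 18.6%. CCT6B had at most 0.691 CPM in any library. The pseudogene symbols CCT6P1 and CCT6P3 together had 2.14% to 2.59% of the CCT6A count; reads shared with such copies can be split by the counting.

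CCT3, the gamma subunit and the other contact site of prefoldin, was nearly constant in wild type, at 637.5, 637.6 and 639.4 CPM. In the knockout it had 652.3, 649.5 and 666.8 CPM. The groups were apart but the rise of the mean was the smallest of the 8 (log2 fold change 0.04 ± 0.03 SE; edgeR, adjusted p = 0.429; 95% interval -1.63% to 7.49%). CCT7, the eta subunit, had 498, 500.4 and 516 CPM in wild type and 519, 528 and 524 CPM in the knockout. It did not pass (log2 fold change 0.05 ± 0.03 SE; edgeR, adjusted p = 0.292; 95% interval -0.89% to 8.64%). In both genes wild-type replicate 3 was the highest wild-type library, the reverse of the other 6. With scaling by library size alone the log2 fold changes of CCT3 and CCT7 were 0.02 and 0.03.

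CCT8, the theta subunit, has been reported to promote assembly of the complex in stem cells. It had 343, 330 and 305 CPM in wild type and 340, 336 and 346 CPM in the knockout, and here alone among the subunits the groups overlapped. The log2 fold change was 0.06 ± 0.04 (SE; edgeR, adjusted p = 0.302; 95% interval -1.16% to 10.55%). It was 0.02 without wild-type replicate 3, 0.10 without wild-type replicate 1 and 0.02 with a correction for GC content. Every knockout library was above every wild-type library in the other 7 subunits. That pattern was met by 15.4% of tested genes and by 39.6% of those whose mean reached 200 CPM, and groups were apart in either direction in 31.3% of tested genes. By side of the ring, 3 of 4 subunits on the tight-binding side and 1 of 4 on the other were called. Of all tested genes 6.36% were called higher, and of those whose mean reached 200 CPM 23.7%. TCP1, among the 3, was called in only 9 of 17 alternative analyses. The split by side was looked at after the values were seen and was not tested.

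**Figure D2:**
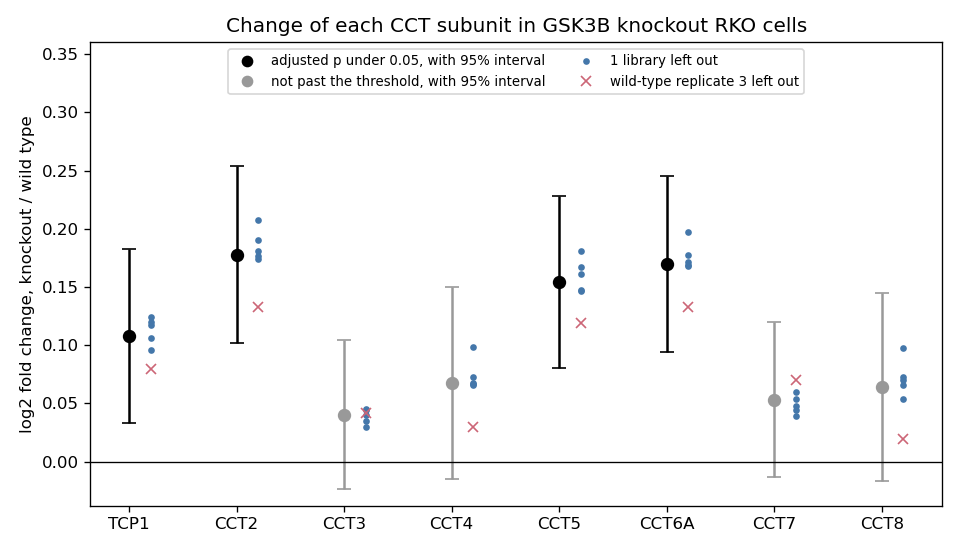
Log2 fold change of each subunit, knockout over wild type (vertical axis), with its 95% interval from edgeR, and beside it the values with 1 library left out. The intervals of TCP1, CCT2, CCT5 and CCT6A lie above 0, and a cross marks the value without wild-type replicate 3, the lowest of the 6 such values for TCP1, CCT2, CCT4, CCT5, CCT6A and CCT8.

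For the 4 called subunits, leaving out wild-type replicate 3 lowered the fold change more than leaving out any other library. Without it the log2 fold changes of CCT2, CCT6A, CCT5 and TCP1 were 0.13, 0.13, 0.12 and 0.08, and all 4 were still called (edgeR, adjusted p = 2.89e-04, 6.86e-04, 0.00158 and 0.0491 in that order), where 7.02% of 14567 tested genes were called higher. Summed over the 8 subunits, wild type had 3291, 3269 and 3128 CPM, and the knockout 3449, 3461 and 3496 CPM. The means were 3229 ± 88.7 and 3469 ± 24.0 CPM (SD, n = 3), a difference of 7.42%, or 5.75% without wild-type replicate 3. In bulk RNA a higher level per cell and a larger share of cells with a high level cannot be told apart.

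Wild-type replicate 3 also differed from its group with GC content. Taking genes whose mean reached 50 CPM, its median log2 difference from the mean of replicates 1 and 2 was -0.08 for the 1482 genes whose longest transcript had 40% to 47% GC. It was 0.04 for the 768 genes with 50% to 55% GC. The knockout comparison also moved with GC content: the median log2 fold change was 0.05 in the first of these ranges, with 16.9% of genes called higher, and 0.00 in the second, with 7.42%. The 6 subunits that were lowest in this library have transcripts of 43.1% to 45.9% GC and differences of -0.14 to -0.09. CCT3 and CCT7, at 51.2% and 51.3% GC, had differences of 0.00 and 0.05. After a correction for GC content the log2 fold changes of CCT2, CCT6A, CCT5 and TCP1 were 0.17, 0.14, 0.13 and 0.07, and the same 4 were called (edgeR, adjusted p = 1.51e-05, 1.25e-04, 3.36e-04 and 0.0446). With that correction 8.71% of tested genes were called higher. Wild-type replicate 3 also held most of the fibroblast marker counts: the 5 genes COL1A1, COL1A2, DCN, LUM and PDGFRA summed to 3.51 CPM there, to 0.70 and 0.83 CPM in the other wild-type libraries and to 0.34 to 0.47 CPM in the knockout. PDGFRA alone did not peak there, with 4, 13 and 6 counts in wild-type replicates 1 to 3. The counts were low, from 2 for LUM to 61 for COL1A1 in wild-type replicate 3. The part of these markers in the result was not tested. The 5 leukocyte, 3 endothelial, 3 erythroid and 1 liver markers each stayed below 1 CPM in every library, and PTPRC, CD3E, CDH5 and ALB were at 0 in all 6.

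**Figure D3:**
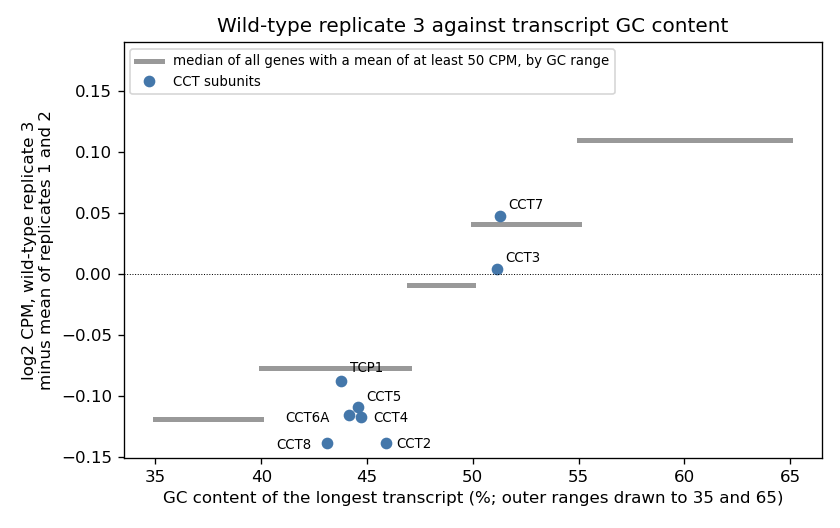
Difference of log2 CPM between wild-type replicate 3 and the mean of wild-type replicates 1 and 2 (vertical axis) against the GC content of the longest transcript (horizontal axis, %). Points are the 8 subunits, and grey bars are medians over all genes of a GC range whose mean reached 50 CPM. CCT3 and CCT7 sit apart from the other 6, as the bars do.

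To compare subunits with each other, levels were divided by transcript length. Per kilobase of the principal GENCODE transcript, CCT3 was highest in wild type with 297 ± 0.49 CPM per kb (SD, n = 3), followed by CCT7 with 263.5 ± 5.10 and CCT2 with 241.5 ± 13.7. CCT8 had 162.5 ± 9.47, CCT6A 129 ± 6.295, TCP1 118 ± 4.11, CCT5 112 ± 4.985 and CCT4 84.0 ± 4.10 CPM per kb. TCP1 and CCT5 overlapped in their wild-type ranges (113 to 121 and 106 to 116 CPM per kb). The order was the same in the knockout, from 305 ± 4.31 for CCT3 to 88.0 ± 0.28 CPM per kb for CCT4. There CCT7 and CCT2 overlapped (271 to 275.5 and 272 to 274 CPM per kb), as did TCP1 and CCT5 (125 to 129 and 122 to 126 CPM per kb).

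The place of CCT5 rests on its transcript model of 3675 bases, against 1916 to 2719 bases for the other 7. Coding sequence is of nearly equal length in all 8 (1593 to 1668 bases). Per kilobase of it, CCT5 stood next after CCT2 in wild type, with 253 ± 11.3 CPM per coding kb. The counts divided were those of the whole gene, with reads outside the coding sequence left in. This scale thus favours transcripts with long non-coding ends, and CCT5 has 1623 coding bases in its 3675. CCT3 remained highest at 390 ± 0.64 and CCT4 lowest at 131 ± 6.38 CPM per coding kb. On this scale CCT7 and CCT2 overlapped in wild type (306 to 317 and 288 to 321.5 CPM per coding kb). In the knockout CCT2 stood above CCT7, at 347 ± 1.08 against 322 ± 2.63 CPM per coding kb, with ranges apart.

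Within a library, the share of each subunit in the summed CCT counts cancels scaling between libraries. The share of CCT2 was 15.7%, 15.3% and 14.8% in wild type and 16.2%, 16.1% and 15.9% in the knockout. CCT6A went from 11.1%, 10.8% and 10.6% to 11.5%, 11.3% and 11.3%. In both the knockout libraries were all above wild type. CCT5 went from 12.7% ± 0.27 to 13.2% ± 0.14 (SD, n = 3). Its libraries had 12.64%, 12.99% and 12.46% in wild type and 13.0%, 13.26% and 13.21% in the knockout. Knockout replicate 1 thus stood above wild-type replicate 2 by a very narrow margin. CCT3 went the other way, from 19.4%, 19.5% and 20.4% to 18.9%, 18.8% and 19.1%, also without overlap. A share falls where a transcript rises less than the others, and the CCT3 level itself was 2.83% above wild type. Shares do not cancel the trend with GC content given above, and CCT3 and CCT7 have a higher GC content than the rest. The shares of TCP1, CCT4, CCT7 and CCT8 overlapped between the groups. TCP1 had 9.13% ± 0.08 and 9.16% ± 0.09 of the counts. These shares were not tested, and how often shares within other gene sets stand apart was not examined.

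**Figure D4:**
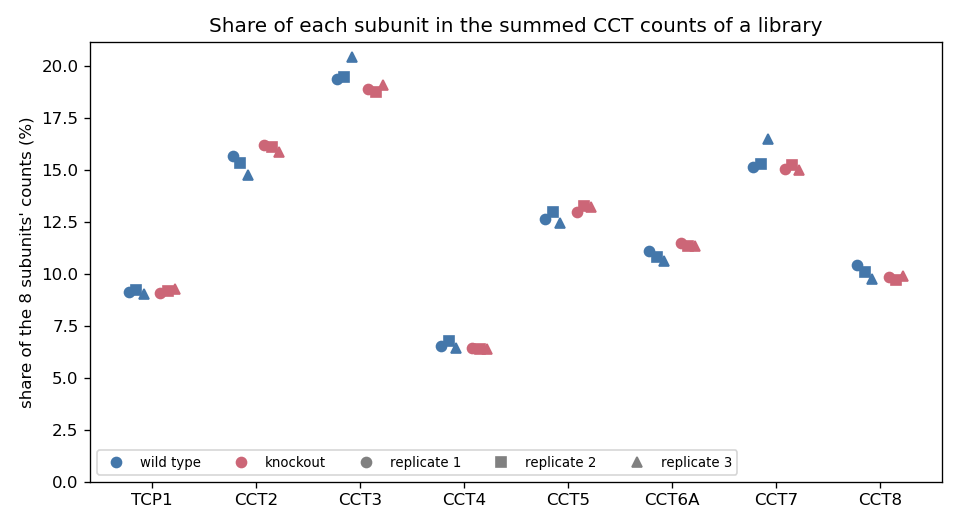
Share of each subunit in the summed counts of the 8 CCT genes (vertical axis, %), 1 point per library. Shares are of counts and not of length-corrected levels, so heights are compared within a subunit only. The knockout points of CCT2, CCT5 and CCT6A all lie above the wild-type points, for CCT5 by a very narrow margin. Those of CCT3 all lie below.

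The 8 genes lie on 7 chromosomes, with CCT4 and CCT7 both on chromosome 2, so the called members are not neighbours. In GENCODE 29 on GRCh38, TCP1 is at chr6:159778498-159789749 (minus strand), CCT2 at chr12:69585334-69601570 (plus), CCT5 at chr5:10249921-10266412 (plus) and CCT6A at chr7:56051630-56063989 (plus). CCT3 is at chr1:156308968-156367873 (minus), CCT4 at chr2:61868089-61888804 (minus), CCT7 at chr2:73233420-73253021 (plus) and CCT8 at chr21:29055805-29073797 (minus). A divergent protein-coding gene starts close to 5 of them: MRPL18 is 63 bases from the start of TCP1, COMMD1 80 bases from CCT4, ATPSCKMT 24 bases from CCT5, PSPH 26 bases from CCT6A and PRADC1 182 bases from CCT7.

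Of these 5 partners 0 were called by edgeR. ATPSCKMT, a mitochondrial lysine methyltransferase gene, had 13.9 ± 1.503 and 16.1 ± 0.92 CPM in wild type and knockout (SD, n = 3; log2 fold change 0.21 ± 0.09 SE; edgeR, adjusted p = 0.118). Its log2 fold change was 0.13 without wild-type replicate 3 and 0.14 with the GC correction. MRPL18, a mitochondrial ribosomal protein gene, had 56.8 ± 4.78 and 58.95 ± 3.20 CPM. PSPH, the last enzyme of serine synthesis, had 16.7 ± 1.08 and 16.6 ± 0.64 CPM, with a log2 fold change of -0.01 ± 0.08 (SE; edgeR, adjusted p = 0.965) beside the called CCT6A. COMMD1 and PRADC1 had log2 fold changes of 0.03 each. All 5 had lower counts than the CCT gene beside them.

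Small nucleolar RNAs that guide pseudouridylation lie within the called members and gave counts: SNORA15 in CCT6A, at 9.94 ± 0.61 and 11.5 ± 1.29 CPM (log2 fold change 0.21 ± 0.10 SE; edgeR, adjusted p = 0.172), and SNORA29 in TCP1, at 5.03 ± 0.29 and 5.47 ± 0.37 CPM (SD, n = 3). The log2 fold change of SNORA15 was 0.12 without knockout replicate 1 and 0.11 with the GC correction. SNORA29 shares 140 exon bases with TCP1 models, and TCP1 shares 397 exon bases with ACAT2 on the other strand. CCT4 shares 81 exon bases with COMMD1, and CCT5 shares 1757 with an antisense gene. The strand setting of the counting is not given in the sources used here, so reads in these overlaps cannot be assigned with certainty.

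Promoter windows from RefSeq (GRCh38.p14, 250 bases before to 50 after a start) matched 7 of the 8 members, all but CCT6A, in 9 windows. Stretches of these windows that lie before the first GENCODE start and outside every GENCODE exon are shown for 2 members that were called, TCP1 and CCT2, and 1 that was not, CCT8, 5′ to 3′ on the gene's own strand. Capitals mark a CCAAT box, the letters CCAAT on either strand, which only the TCP1 stretch holds. The TCP1 stretch, chr6:159789750-159789811, is the whole gap between TCP1 and MRPL18. The others are chr12:69585209-69585333 and chr21:29073798-29073898.
TCP1: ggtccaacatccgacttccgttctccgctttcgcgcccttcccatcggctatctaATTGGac
CCT2: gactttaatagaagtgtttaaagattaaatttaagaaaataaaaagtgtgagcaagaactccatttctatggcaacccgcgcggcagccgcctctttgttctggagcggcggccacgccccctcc
CCT8: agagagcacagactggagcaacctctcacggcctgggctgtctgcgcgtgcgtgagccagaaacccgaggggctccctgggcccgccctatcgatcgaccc

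These stretches differ in composition, with 56.5%, 47.2% and 67.3% GC in that order. Over the full windows 5 patterns were searched on both strands. Inverted GAA units, a part of the heat shock element of HSF1, were searched in the 2 arrangements GAANNTTC and TTCNNGAA. Either was matched in 3 of 9 member windows and in 10.3% of the 15388 windows of tested genes. Full elements were not searched for. TCP1 had GAAGGTTC 231 bases before its RefSeq start, CCT2 had GAAATTTC 89 bases before the later of its 2 RefSeq starts, and CCT4 had TTCTGGAA 38 bases after its start. The TCP1 match lies beyond the gap, within MRPL18, and the CCT2 match lies within the GENCODE gene CCT2. CCAAT was matched in 4 of 9 windows (TCP1, CCT2, CCT3 and CCT8) and in 34.9% of the windows of tested genes. The ETS pattern CCGGAAGT was matched in CCT2 alone, against 7.40%, and the E-box CACGTG, which MYC binds, in 0 of 9, against 9.44%. A match is a description of the letters, and matches fell in called and uncalled members alike.

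The cochaperones that work with CCT comprise prefoldin, prefoldin-like proteins and phosducin-like proteins. Of the 6 prefoldin genes 0 were called in edgeR, DESeq2 or limma-voom, and 0 had an unadjusted p under 0.05. Their median log2 fold change was 0.01, from -0.08 for PFDN1 (79.0 ± 2.48 and 75.0 ± 1.06 CPM in wild type and knockout) to 0.09 for VBP1 (62.7 ± 4.35 and 66.9 ± 2.66 CPM; SD, n = 3). Of 3 prefoldin-like genes PDRG1 rose by 14.3%, from 35.8 ± 1.58 to 41.0 ± 0.40 CPM (edgeR, adjusted p = 0.0306), and it was the only call in these 3 groups, where 6.36% of all tested genes were called higher. It no longer passed without any 1 of the libraries other than wild-type replicate 3 (adjusted p = 0.0525 to 0.140). UXT stood at 23.3 ± 0.84 and 25.9 ± 0.99 CPM (edgeR, adjusted p = 0.154). Of the 3 tested phosducin-like and thioredoxin-like cochaperones 0 were called by edgeR, DESeq2 or limma-voom or had an unadjusted p under 0.05. All 3 were lowest in wild-type replicate 3; TXNDC9, which binds CCT and lowers its ATP hydrolysis, had 14.5, 14.3 and 11.4 CPM in wild type and 14.9, 14.1 and 15.05 CPM in the knockout.

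The other chaperonins of the cell gave a mixed picture. HSPE1, the cochaperonin of the mitochondrial HSPD1 ring, rose 1.146-fold, from 227, 216.5 and 205 CPM to 239, 252 and 252 CPM (edgeR, adjusted p = 0.00219). HSPD1 had 1413 ± 81.6 and 1503 ± 25.6 CPM (SD, n = 3; edgeR, adjusted p = 0.09998), and passed without wild-type replicate 1 (adjusted p = 0.0131). Of 4 tested chaperonin-like genes, among them those that help assemble the BBSome of cilia, 0 were called by edgeR, DESeq2 or limma-voom, and 1 was lower at an unadjusted p under 0.05. That gene was BBS10, at 33.8 ± 2.43 and 29.8 ± 0.37 CPM (edgeR, adjusted p = 0.0657), which passed as lower without wild-type replicate 3 (adjusted p = 0.00861), and also with the GC correction (adjusted p = 3.87e-04).

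Clients of the complex did not move as 1 group. Of 13 actin and tubulin genes 2 were called higher and 2 lower by edgeR, against 6.36% and 7.18% of all tested genes, with a median log2 fold change of 0.01. The genes called higher had means above 200 CPM, a range in which 23.7% of tested genes were called higher. TUBA1C and TUBB, major tubulin genes of dividing cells, rose by 7.08% and 6.35%, from 1335 ± 42.6 to 1430 ± 17.6 and from 1724 ± 28.2 to 1833 ± 12.6 CPM (SD, n = 3; edgeR, adjusted p = 0.0371 and 0.0433). TUBA1A and the neuronal TUBB3 fell, from 176 ± 3.87 to 156 ± 2.34 and from 49.0 ± 1.96 to 43.1 ± 1.02 CPM (edgeR, adjusted p = 0.00527 and 0.02925). With scaling by library size alone the counts were 0 higher and 2 lower, and after the GC correction 5 higher and 1 lower. TUBA1C and TUBB no longer passed without any 1 of the libraries other than wild-type replicate 3 (adjusted p = 0.0867 to 0.188). TUBB3 no longer passed without any 1 of the libraries other than wild-type replicate 1 (adjusted p = 0.0594 to 0.135), or with the GC correction (adjusted p = 0.103). Tubulin genes are close paralogs whose reads the counting could split.

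Of the 5 tubulin folding cofactors, which take tubulin from CCT and join alpha to beta tubulin, TBCE rose by 26.0%, from 58.7, 59.6 and 53.45 CPM to 68.5, 72.3 and 75.6 CPM (log2 fold change 0.33 ± 0.05 SE; edgeR, adjusted p = 2.03e-04). That was the largest rise among the cochaperones, cofactors and clients listed, heat shock genes aside. The other 4 did not pass, with log2 fold changes from -0.10 upward. Among other reported clients, GNB1, a G-protein beta subunit, had 307 ± 3.92 and 321 ± 3.23 CPM, and CDC20, the activator of the anaphase-promoting complex, 133 ± 4.53 and 138 ± 2.58 CPM (SD, n = 3). GNB1 did not pass (edgeR, adjusted p = 0.236), nor did CDC20 (edgeR, adjusted p = 0.430), which passed as higher after the GC correction (adjusted p = 0.0200).

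The list of cytosolic heat shock genes includes the HSP70 partners of CCT and also the heat shock factor genes HSF1 and HSF2. Of 16 tested 9 were called higher and 1 lower by edgeR, where 6.36% of all tested genes were called higher and 23.7% of those whose mean reached 200 CPM. The median log2 fold change was 0.16, and the counts were 7 higher and 1 lower with scaling by library size alone. HSPH1, a nucleotide exchange factor of HSP70, rose 1.515-fold and CHORDC1, an HSP90 cochaperone, 1.36-fold (edgeR, adjusted p = 3.91e-08 and 9.27e-06). HSPA8, the constitutive HSP70, rose 1.19-fold, from 2066 ± 72.1 to 2455 ± 40.2 CPM (edgeR, adjusted p = 5.34e-06). The member that fell was HSF2, a heat shock factor, from 30.5 ± 1.59 to 25.8 ± 1.87 CPM (edgeR, adjusted p = 0.0238), which was not called when wild-type replicate 2, knockout replicate 1 or knockout replicate 2 was left out (adjusted p = 0.135, 0.143 and 0.0957).

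**Figure D5:**
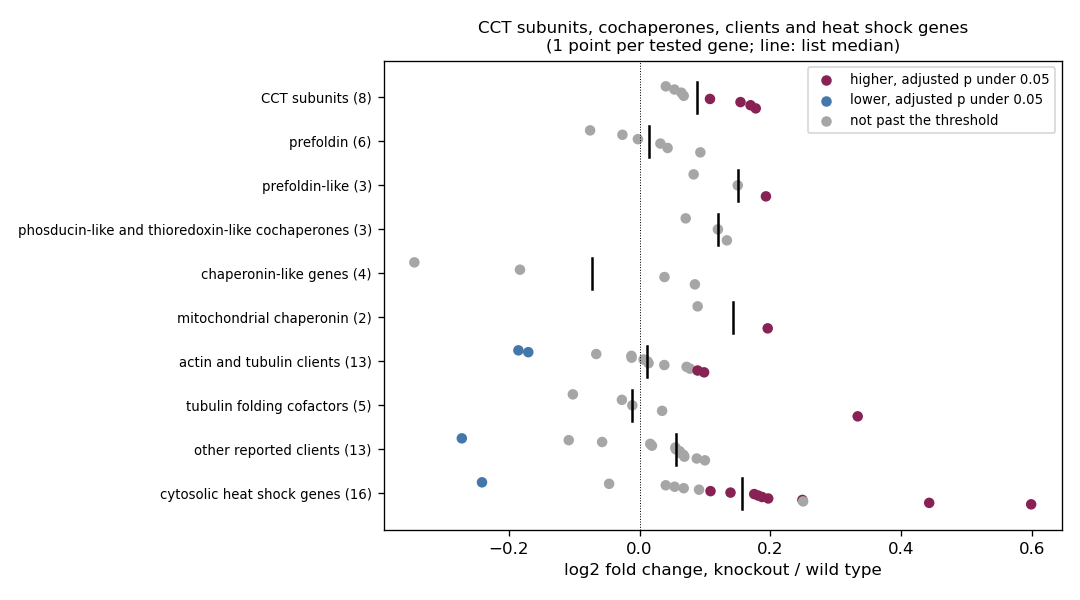
Log2 fold change, knockout over wild type (horizontal axis), of each tested gene of the CCT subunits and 9 companion lists, with the number tested in parentheses and the list median as a line. All 8 CCT subunits lie above 0, with a median of 0.09, and the prefoldin genes lie around 0, with a median of 0.01.

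To find transcripts with a like pattern, the log2 CPM of each gene was centred on its mean over the 6 libraries and set against the average of the 8 subunits. That average was -0.02, -0.03 and -0.11 in wild type and 0.04, 0.05 and 0.06 in the knockout, replicates in order. Among 4878 other genes whose mean reached 50 CPM the smallest root-mean-square distances, in log2 units over 6 libraries, were those of RPS23 (0.0079), STAT3 (0.0092), RBM12 (0.0105), PPT1 (0.0115) and RRM1 (0.01155). STAT3 is also on the list of reported clients. RPS23 encodes a ribosomal protein and had 558, 559.9 and 534 CPM in wild type and 586, 588 and 593.5 CPM in the knockout. RRM1, the large subunit of ribonucleotide reductase, had 218, 218 and 206 and then 229, 227 and 227 CPM. Of the subunits themselves TCP1 was closest to the average (0.0093) and CCT7 farthest (0.051), each being part of the average. Ranked by distance among these genes and the subunits together, TCP1 was number 3, CCT4 165, CCT5 281 and CCT8 340. CCT6A was number 538, CCT2 843, CCT3 853 and CCT7 1262. Many other genes were thus nearer to the average than most subunits were.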

How the data were processed

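The authors deposited 1 table of whole-number counts per gene symbol for each of 6 libraries; per the labels' protocols, libraries made from total RNA were read as 150 bp pairs. The submitters' processing notes name hg38, TopHat, edgeR and limma, with no roles. Counting program, annotation and strand: not given in the sources used here. Groups came from the sample titles. In R 4.3.3, genes passing filterByExpr (minimum count 10, minimum total 15; 14409 of 28278) were scaled by TMM and fitted with edgeR 4.0.16 (robust quasi-likelihood, group only), with Benjamini-Hochberg adjustment over all tested genes and a threshold of 0.05. Checked alternatives were DESeq2 1.42.0, voom in limma 3.58.1, other scalings and filters, a GC spline of 5 degrees of freedom, the replicate block and leaving out each library. The GC content and lengths came from GENCODE 29 (95.9% of tested genes had a GC value). Companion genes named are all those of lists of up to 6 tested genes, and from longer lists up to 4 called genes with the largest change, or the 2 highest where fewer than 2 were called; not all are printed, and some values are not reported here. Members and lists were chosen with earlier results of these data known. The test was tested on simulated data. Replicates within a group differed by more than sampling noise (chi-square per degree of freedom 3.11 to 9.30).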

Additional observations from a re-analysis of the deposited data

How the results depend on the processing

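CCT2, CCT5 and CCT6A were called higher under all 17 alternatives, TCP1 under 9, and CCT3, CCT4, CCT7 and CCT8 under 0; the log2 fold change of each of the 8 was above 0 under all 17. The number of subunits called higher was 3 or 4 and the number called lower 0 throughout. The median of the 8 ran from 0.07 to 0.11. Over the fits without 1 library the count of all called genes ran from 950 to 2531, against 1951. Same-numbered libraries did not deviate together (correlations of 0.07, 0.00 and 0.03 for numbers 1 to 3). With 3 libraries per group, that cannot show whether a number marks a shared day, culture or batch, and the labels do not say. With the replicate block 2193 genes and 4 subunits were called. VBP1 changed sign after the GC correction (-0.0027, and -0.0025 with the replicate block). Some genes beside members, none of them called, changed sign without 1 library: COMMD1 ran from -0.0324 to 0.113, PRADC1 from -0.0712 to 0.127 and PSPH from -0.0632 to 0.0324. The causes were not tested. Over 43 named genes and 17 alternatives, 653 of 731 values kept direction and side of the threshold, 56 were no longer called, 12 became called and 10 changed sign. The depth limits low companions such as PSPH more than the subunits, of which CCT4 had the lowest counts, 6672 to 7405 per library.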
